A study of Oryza sativa Indica Group with 12 samples.

Results

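The interaction of cultivar and excess Fe was measured as the change with excess Fe in roots of the susceptible rice cultivar BR-IRGA 409 minus the change in roots of the tolerant cultivar EPAGRI 108. All 12 arrays of the series entered it, 3 for each of 4 groups. Plants of both indica cultivars stood in hydroponics for 3 days with FeSO4 at 500 mg/L Fe (excess Fe) or at 6.5 mg/L Fe (control), and both groups of a cultivar had been raised in the same nutrient solution before. Sodium sulfate was added to the control solution so that both treatments held equal sulfur, and the treatments therefore also differed in sodium. Labels call the arrays of a group biological replicates, so p-values measure the spread between these samples. Of 57258 probe sets tested, 80 were called in the interaction (0.14%), at a limma adjusted p under 0.05 and a ratio of the changes of at least 3-fold. A ratio this large can come from a gap between the cultivars that stood in the control plants or from one that stood in the plants with excess Fe, and the called probe sets were sorted by where the gap lay.

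Rice takes up Fe by both known routes of plants. Nicotianamine synthases and nicotianamine aminotransferase make the precursors of deoxymugineic acid, which is released into the soil, binds Fe(III) and is taken up as a chelate, while transporters such as OsIRT1 carry Fe(II). Uptake genes are known to be switched on when Fe is scarce, and ferritins and vacuolar transporters to be raised when Fe is plentiful, since free Fe drives the formation of reactive oxygen species.

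The EPAGRI 108 arrays numbered 1 stood apart from their groups. Excess Fe array 1 and control array 1 correlated at 0.9968, the highest of the 66 pairs of arrays, and differed by at least 2-fold at only 41 probe sets. Control array 1 correlated less with control arrays 2 and 3 (0.986 and 0.9871) than with excess Fe arrays 2 and 3 (0.9879 and 0.9873). Results are therefore also given without both arrays: 113 probe sets were then called, 68 of the 80 among them. Root markers were high on every array (Lsi1, Lsi2 and OsCASP1, 8.88 to 13.78 on the log2 scale). Transcripts of green tissue were present too: CAB2R read 9.25 to 12.59, with a mean of 12.07 in BR-IRGA 409 control and 10.03 in EPAGRI 108 control. RBCS and rca also lay above the brightest control probe sets on all 12 arrays and RBCS-A on 0 of them. None of these markers was called in the interaction, and their part in the results was not tested. Fewer cells of a type and less RNA per cell cannot be told apart in whole roots.

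Of the 80 probe sets, 49 were positive (0.0856% of those tested) and 31 negative (0.0541%). Signs follow the array labels. The study's own tables give the EPAGRI 108 changes the other way round, and with the EPAGRI 108 treatment labels exchanged 1299 and 539 probe sets would be called. BR-IRGA 409 changed more than EPAGRI 108 at all 80. Its own change was called at 73 of them, against 1.34% of all probe sets, and the EPAGRI 108 change at 4, against 0.306%; these contrasts are part of the interaction and nothing is read from them. The EPAGRI 108 change had the same sign at 62 of the 80 and stayed under 1 log2 unit at 66. At 22 probe sets every EPAGRI 108 array lay no higher than the top control probe sets without a match in rice (4.51 to 5.01 on an array), so that only a bound can be given for the missing signal.

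The gap between cultivars (BR-IRGA 409 minus EPAGRI 108) was called in the control arrays only at 43 probe sets, in the excess Fe arrays only at 21, in both with the same sign at 8 and in neither at 8. No probe set had called gaps of opposite sign. Over all probe sets 1.11% had a called gap in control (BR-IRGA 409 higher at 0.51% and lower at 0.604%) and 1.19% in excess Fe (0.596% and 0.59%). The classes are a description, because the interaction is the excess Fe gap minus the control gap. Of 31 negative probe sets 22 had their gap in control only and 3 in excess Fe only, and of 49 positive ones 21 and 18 did. The small number of 3 depended on the EPAGRI 108 arrays numbered 1, although 2 of the 3 stayed called in the interaction without both. In that fit 22 of 64 negative probe sets had the gap in control only and 18 in excess Fe only, and 21 and 16 of 49 positive ones. Without EPAGRI 108 control array 1 alone these were 24 and 16 of 61 negative and 21 and 16 of 47 positive ones. In the control class the gap closed, which the sorting by called gaps favours, so nothing is read from it. Its median went from 3.09 to -0.01 at the negative and from -2.54 to 0.01 at the positive probe sets, and the remaining gap was under 1 log2 unit at 22 of 22 and 19 of 21.

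**Figure D1:**
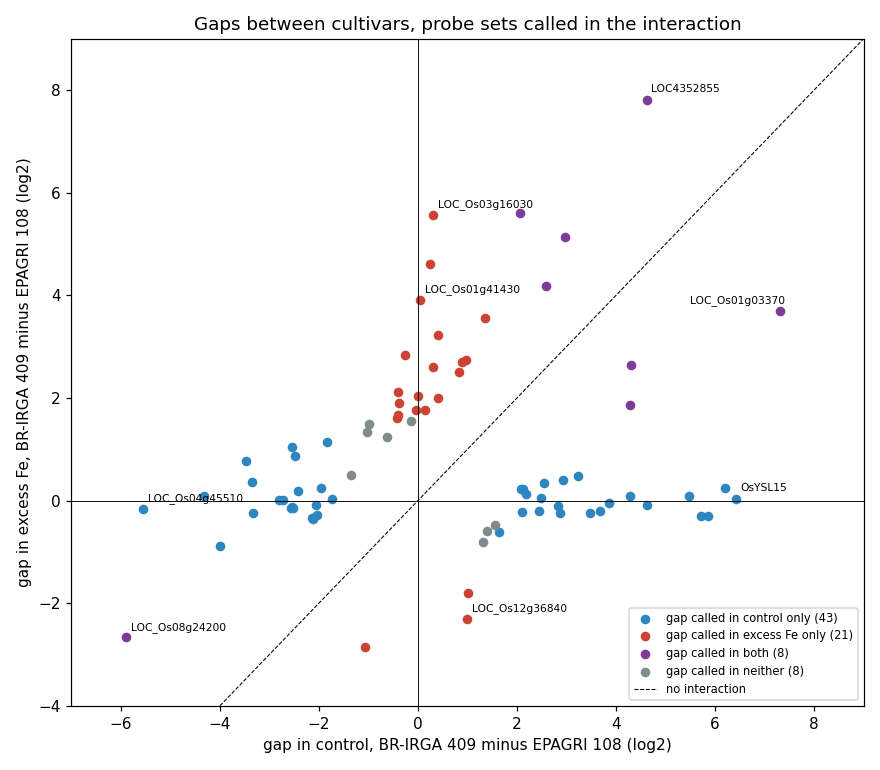
Gap between the cultivars in control (x axis, log2) and in excess Fe (y axis, log2) at the 80 probe sets called in the interaction, coloured by where the gap was called, with the number in each class. Points of the control class (43) lie along the horizontal line of no gap in excess Fe, and most points of the excess Fe class (21) lie near the vertical line of no gap in control.

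Genes of Fe uptake made up the largest negative interactions. Of 15 listed uptake genes and regulators, 10 were called negative and 0 positive, against 0.0541% and 0.0856% of all probe sets. All 10 had the gap in control only. Their transcripts were far higher in BR-IRGA 409 control than in the other 3 groups, which lay close together. The median interaction of the list was -3.88, against -0.01 over all probe sets. Of its members, 13 stand in the study's own tables of changed genes from these arrays, so the list is not independent evidence of its direction.

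OsYSL15 takes up the Fe(III)-deoxymugineic acid chelate. It read 12.99, 12.78 and 12.89 in BR-IRGA 409 control, 5.55, 5.59 and 5.55 in BR-IRGA 409 excess Fe, 6.57, 6.48 and 6.35 in EPAGRI 108 control and 6.43, 5.01 and 5.16 in EPAGRI 108 excess Fe. The BR-IRGA 409 control arrays stood alone, and the excess Fe groups of the cultivars overlapped. The change was -7.32 ± 0.27 (SE) in BR-IRGA 409 and -0.93 ± 0.27 in EPAGRI 108, an interaction of -6.39 ± 0.39 (adjusted p = 8.85e-06). In EPAGRI 108 excess Fe, array 1 was level with the control arrays and arrays 2 and 3 lay below them. Without the arrays numbered 1 the EPAGRI 108 change was -1.32 (adjusted p = 0.000104) and the interaction was still called.

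Synthesis of the chelator followed the same course. OsNAS1, a nicotianamine synthase, read 12.55, 12.85 and 12.88 in BR-IRGA 409 control, 5.03, 5.54 and 5.80 in its excess Fe arrays, 7.24, 6.68 and 6.76 in EPAGRI 108 control and 7.19, 5.16 and 4.92 in EPAGRI 108 excess Fe (interaction -6.16 ± 0.64, adjusted p = 0.00101). EPAGRI 108 excess Fe array 1 was again level with control, and without the arrays numbered 1 the interaction was -5.62. OsNAS2 read 12.49, 12.82 and 13.02 against 6.32, 6.18 and 6.60 in BR-IRGA 409, and 6.59, 6.60 and 6.54 against 6.37, 5.73 and 6.24 in EPAGRI 108. Its gap of 6.20 ± 0.18 in control became 0.25 ± 0.18 in excess Fe (interaction -5.95 ± 0.25). OsNAAT1, the aminotransferase of the next step, had a gap of 5.47 ± 0.21 in control and 0.10 ± 0.21 in excess Fe (interaction -5.38 ± 0.30), and the EPAGRI 108 groups overlapped. OsNAS3 did not share this pattern: it rose by 2.19 in BR-IRGA 409 (adjusted p = 0.000111), and its interaction of 1.50 did not pass the test (adjusted p = 0.121).

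Export and further transport of the chelates were represented by OsTOM1 and OsYSL2. OsTOM1, which releases deoxymugineic acid, read 6.94, 6.98 and 6.64 in BR-IRGA 409 control, and all 9 other arrays lay under the control probe sets. It was at least 4.55-fold lower with excess Fe in BR-IRGA 409 and at least 4.1-fold lower in EPAGRI 108 control than in BR-IRGA 409 control. The interaction was -4.21 ± 0.28 as measured and -2.26 with values set to the control probe sets. OsYSL2, a transporter of nicotianamine chelates, stood at 8.92 to 9.10 in BR-IRGA 409 control and at 4.55 to 5.20 on all other arrays (interaction -3.90 ± 0.21). OsNRAMP1, a metal transporter, read 9.77, 9.92 and 9.84 in BR-IRGA 409 control and 6.13, 6.16 and 6.20 in EPAGRI 108 control, and the gap of 3.68 ± 0.14 went to -0.20 ± 0.14 (interaction -3.88 ± 0.20).

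Regulators of the Fe response fell in BR-IRGA 409 too. OsIMA1, a small peptide of the IRON MAN family that acts as a positive regulator of Fe deficiency responses, read 9.82, 9.95 and 10.31 in BR-IRGA 409 control and lay under the control probe sets on every other array. It fell at least 41.1-fold in BR-IRGA 409, and the cultivars differed at least 37.1-fold in control (interaction -6.01 ± 0.22, adjusted p = 1.52e-07). OsIRO3, a bHLH protein known as a negative regulator of that response, had a gap of 2.08 ± 0.15 in control and 0.23 ± 0.15 in excess Fe (interaction -1.85 ± 0.21). OsMIR, a gene induced by Fe deficiency, read 5.21, 5.85 and 6.19 in BR-IRGA 409 control and lay under the control probe sets elsewhere. With values set to that level its interaction went from -2.93 to -1.16 and was no longer called (adjusted p = 0.0755).

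The 5 remaining members of the list were not called. OsIRT1, the Fe(II) transporter, was the one among them whose call rested on the EPAGRI 108 arrays numbered 1. It read 11.82, 11.62 and 11.55 in BR-IRGA 409 control and 6.34, 5.82 and 5.72 in its excess Fe arrays, and 9.93, 10.26 and 10.09 in EPAGRI 108 control and 9.24, 6.46 and 5.99 in its excess Fe arrays. Excess Fe array 1 of EPAGRI 108 lay close to control and well above the other two of its group. Its interaction of -2.84 had an adjusted p of 0.552, and without the arrays numbered 1 it was -1.75 and called (adjusted p = 0.0271). OsYSL16 passed the test but not the 3-fold limit (-1.42, adjusted p = 0.0177). OsIRT2 and IDEF1, a transcription factor of the Fe response, had interactions of 0.10 and 0.27.

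**Figure D2:**
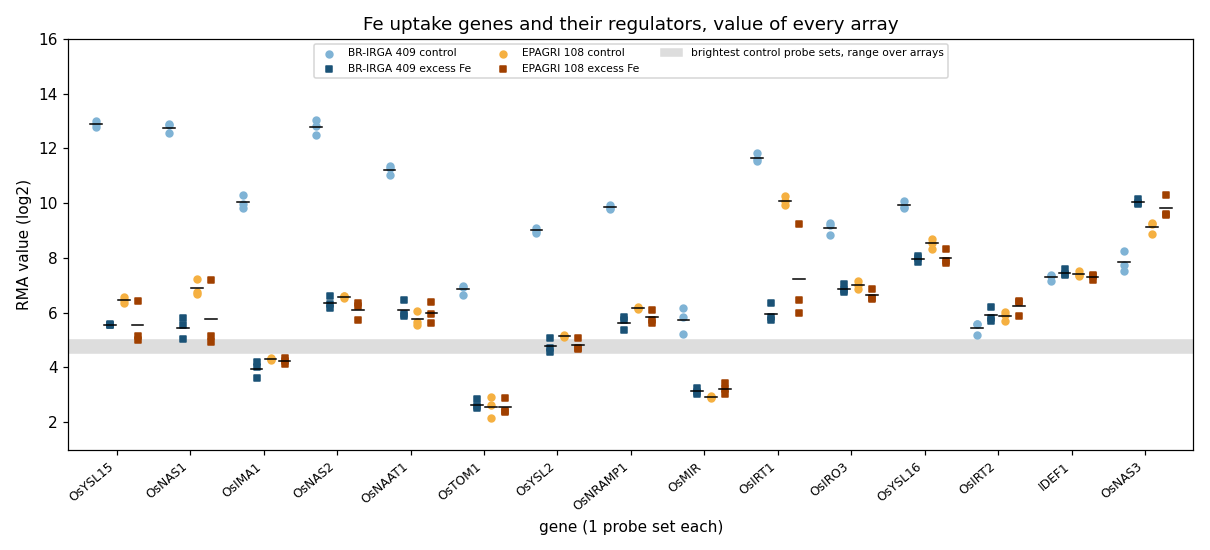
RMA value (log2, y axis) of each array for 15 Fe uptake genes and regulators (x axis, 1 probe set each), ordered by interaction. Points are arrays by group and short lines are group means; the grey band spans the brightest control probe sets over the arrays. BR-IRGA 409 control (light blue) stands above the other 3 groups at the first 12 genes, and EPAGRI 108 excess Fe array 1 stands apart at OsYSL15, OsNAS1 and OsIRT1.

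Further genes fell in BR-IRGA 409 from a control level that EPAGRI 108 did not have. LOC_Os11g15624, of unknown function, read 9.26, 8.81 and 9.06 in BR-IRGA 409 control and lay under the control probe sets on the other 9 arrays, a fall of at least 20.8-fold (interaction -4.72 ± 0.18). LOC_Os01g65110, a putative peptide transporter driven by protons, fell at least 13.2-fold in BR-IRGA 409 (interaction -3.72 ± 0.35). OsPrx12 (LOC_Os01g22230), a class III peroxidase, read 10.66, 11.28 and 11.30 in BR-IRGA 409 control and 8.36 to 8.73 on all other arrays (interaction -2.42 ± 0.22). A few more were chosen after their values were seen. The putative cysteine synthase LOC_Os06g36850, an enzyme of sulphur assimilation, had a gap of 1.64 in control and -0.61 in excess Fe (interaction -2.25), and was not called with the replicate number of each cultivar as a block (adjusted p = 0.0715). The putative transporter LOC_Os11g05390 had an interaction of -2.75 and the kinase LOC_Os01g46720 one of -2.06.

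The positive probe sets of the control class showed the reverse: EPAGRI 108 control stood above BR-IRGA 409 control, which the sorting favours. Excess Fe raised these transcripts in BR-IRGA 409. The median rise was 3.83 in BR-IRGA 409 and 0.92 in EPAGRI 108. The EPAGRI 108 groups did not overlap at 19 of the 21 (13.4% of all probe sets) and the BR-IRGA 409 groups at 21 (24.2% of all), and nothing is read from these counts, since both changes are part of the interaction. Members of the list of Fe storage and vacuolar transport stood first in the class. These were OsVIT2 and 2 loci described as an integral membrane protein (LOC_Os04g45520) and a hypothetical protein (LOC_Os04g45510). The study also names LOC_Os04g45520 a VIT-like protein and calls it uncharacterized. Of 6 listed genes of Fe storage and vacuolar transport, 3 were called positive and 0 negative, against 0.0856% and 0.0541% of all probe sets. The list median was 2.45. As 5 of the 6 stand in the study's tables, their direction is not independent either.

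OsVIT2, which moves Fe into the vacuole, was measured by 2 probe sets. One read 6.50, 6.77 and 6.51 in BR-IRGA 409 control, 11.90, 12.03 and 12.08 in its excess Fe arrays, 9.92, 10.30 and 10.01 in EPAGRI 108 control and 10.42, 11.43 and 11.86 in EPAGRI 108 excess Fe. BR-IRGA 409 control was the low group, and the excess Fe group of EPAGRI 108 lay above its control on every array. The rise was 5.41 ± 0.27 in BR-IRGA 409 and 1.16 ± 0.27 in EPAGRI 108, an interaction of 4.25 ± 0.38 (adjusted p = 0.000362), and the other probe set gave 3.72 ± 0.33. Without the arrays numbered 1 the first was 3.92, with an EPAGRI 108 rise of 1.49.

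LOC_Os04g45520, described as an integral membrane protein and listed here with the vacuolar transporters, read 6.43, 6.85 and 7.41 in BR-IRGA 409 control, 13.13, 13.23 and 13.27 in its excess Fe arrays, 12.15, 11.01 and 10.51 in EPAGRI 108 control and 12.71, 13.23 and 13.40 in EPAGRI 108 excess Fe. The excess Fe groups overlapped, and EPAGRI 108 control array 1 was the highest of its group. Its interaction was 4.42 ± 0.50 (adjusted p = 0.00192), and 3.76 without the arrays numbered 1. LOC_Os04g45510, the locus before it by number, is described as a hypothetical protein and was on the same list. It had the largest positive interaction, 5.39 ± 0.74 (adjusted p = 0.00936). It read 2.61 to 3.21 in BR-IRGA 409 control, 11.20, 11.17 and 11.14 in its excess Fe arrays, 10.20, 7.69 and 7.59 in EPAGRI 108 control and 10.94, 11.35 and 11.70 in EPAGRI 108 excess Fe. It rose at least 77.7-fold in BR-IRGA 409 and was at least 12.1-fold higher in EPAGRI 108 control than in BR-IRGA 409 control. With values set to the control probe sets the interaction was 3.44 and not called (adjusted p = 0.0755); without the arrays numbered 1 it was 4.34 and called, beside an EPAGRI 108 rise of 3.89.

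Ferritins, which store Fe in plastids, lay in the same direction without passing the test. OsFER1 rose by 2.00 in BR-IRGA 409 and 0.82 in EPAGRI 108 (interaction 1.17, adjusted p = 0.0778), and OsFER2 by 2.12 and 0.95 (1.17, adjusted p = 0.127). Both rises of BR-IRGA 409 were called, and those of EPAGRI 108 passed the p (adjusted p = 0.0392 for each) but not 3-fold. OsVIT1 had an interaction of -0.15.

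Stress proteins of the ABA response followed. Of 4 listed genes 2 were called positive, against 0.0856% of all probe sets. The list's median was 2.58, against -0.01 over all probe sets. All 4 stand in the study's tables of changed genes, so the count is not independent evidence. LOC_Os12g29400, a putative ABA-responsive protein, read 7.90, 7.97 and 7.66 in BR-IRGA 409 control, 12.18, 12.26 and 12.11 in its excess Fe arrays, 10.68, 10.27 and 10.00 in EPAGRI 108 control and 10.83, 11.29 and 11.81 in EPAGRI 108 excess Fe (interaction 3.34 ± 0.31, adjusted p = 0.000426). OsASR1 (LOC_Os02g33820), an abscisic acid, stress and ripening protein, went from 11.03, 10.83 and 10.96 to 13.03, 13.18 and 13.20 in BR-IRGA 409 and stood at 12.74, 12.59 and 12.69 in EPAGRI 108 control (interaction 1.77 ± 0.17). BR-IRGA 409 control alone was low for both genes. OsASR3 (LOC_Os01g72900) and LOC_Os01g72910 rose in both cultivars, by 5.89 and 4.80 in BR-IRGA 409 and 3.24 and 2.29 in EPAGRI 108, and their interactions of 2.64 and 2.51 did not pass (adjusted p = 0.740 and 0.255). For both, EPAGRI 108 control array 1 was the highest of its group (6.41 against 3.98 and 3.39 for OsASR3).

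Peroxidases and cytochrome P450s had single members in this class. Class III peroxidases act in the wall on phenolics and hydrogen peroxide. Of 15 listed, 2 were called positive and 1 (OsPrx12) negative, against 0.0856% and 0.0541% of all probe sets. As 13 of the 15 stand in the study's tables of changed genes, these counts are not independent evidence. OsPrx104 (LOC_Os07g34710) read 6.68, 6.91 and 6.76 in BR-IRGA 409 control and 9.28, 9.78 and 9.69 in EPAGRI 108 control, and the gap of -2.80 ± 0.23 became 0.01 ± 0.23 in excess Fe (interaction 2.81 ± 0.33). OsPrx93 (LOC_Os06g48000) had an interaction of 1.76 ± 0.31 (adjusted p = 0.0462). Its call was lost in 11 of 12 fits that each left out 1 array, and without the arrays numbered 1 (adjusted p = 0.147). A probe set of the same name but another suffix has no annotated gene and may bind related sequences. It gave 1.81 ± 0.26 (adjusted p = 0.0121), a call lost in 0 of the 12 fits. That call was also kept without the arrays numbered 1 (adjusted p = 0.0409). Of 45 P450 oxidases, 21 of which stand in the study's tables, 3 were called positive and 0 negative. The median interaction of the 45 was 0.04 and lay near that of all probe sets. CYP72A1-like LOC_Os01g43720 rose by 4.21 ± 0.28 in BR-IRGA 409 and 1.24 ± 0.28 in EPAGRI 108 (interaction 2.97 ± 0.39). LOC_Os01g58960, described as CYP94A1, rose by 4.65 and 1.92 (interaction 2.73 ± 0.42), with EPAGRI 108 control array 1 at 9.28 against 8.20 and 7.81, and was lost in 7 of the 12 fits.

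A class II small heat shock protein, LOC_Os01g08860, also had its gap in control. It read 4.90, 4.92 and 5.20 in BR-IRGA 409 control, 8.53, 9.73 and 8.62 in its excess Fe arrays, 9.48, 8.89 and 8.64 in EPAGRI 108 control and 9.67, 10.05 and 9.84 in EPAGRI 108 excess Fe (interaction 3.11 ± 0.41). A brighter probe set that the annotation gives to the same gene read 8.04 to 8.74 on all arrays and had an interaction of 0.07, so the probe sets of this gene disagreed. LOC9267937 had an interaction of 3.60 ± 0.52. The membrane protein LOC_Os04g59020, chosen after its values were seen, was called at 4 probe sets (1.98 to 2.42), which is 1 gene and not 4 results; these calls were lost in 4 to 7 of the 12 fits that each left out 1 array.

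**Figure D3:**
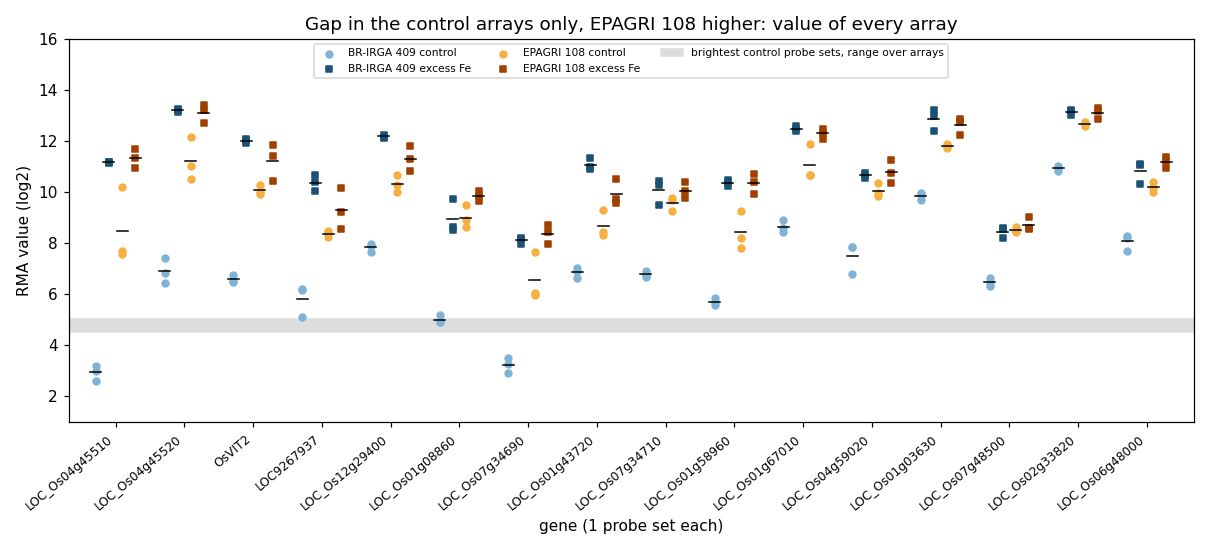
RMA value (log2, y axis) of each array for the 16 genes (x axis, 1 probe set each) whose interaction was positive and whose gap was called in control only. Short lines are group means and the grey band spans the brightest control probe sets; BR-IRGA 409 control (light blue) is the lowest group at every gene, and EPAGRI 108 control array 1 stands above its group at LOC_Os04g45510, LOC_Os07g34690 and LOC_Os01g58960. The call of LOC_Os07g34690 (interaction 3.07) was lost in 8 of 12 fits that each left out 1 array, with either replicate block (adjusted p = 0.0956 and 0.0682) and with values set to the control probe sets (1.41).

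At the 18 positive probe sets of the excess Fe class the median gap was 0.20 in control and 2.55 in excess Fe, sizes that the sorting favours. The median change was 2.66 in BR-IRGA 409 and 0.13 in EPAGRI 108. At 10 of the 18 every EPAGRI 108 array lay under the control probe sets, and 10 stayed called when values were set to that level.

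LOC_Os03g16030 led this class; it encodes a small heat shock protein of class I, one of the chaperones that hold unfolding proteins. It read 4.57, 4.26 and 4.91 in BR-IRGA 409 control, 9.57, 10.61 and 9.58 in BR-IRGA 409 excess Fe, 4.51, 4.16 and 4.12 in EPAGRI 108 control and 4.41, 4.49 and 4.15 in EPAGRI 108 excess Fe. Only the BR-IRGA 409 excess Fe arrays rose above the control probe sets, by at least 32.6-fold, and the gap in excess Fe was at least 32.7-fold (interaction 5.25 ± 0.36, adjusted p = 2.68e-05). A further probe set of the gene, which may bind related sequences, gave 4.36 ± 0.29. LOC_Os03g16020, the locus before it and also a class I protein, was picked after its values were seen: it rose by 2.60 in BR-IRGA 409 and 2.04 in EPAGRI 108, with an interaction of 0.56 (adjusted p = 1), and of -0.20 without the arrays numbered 1. Of 19 listed small heat shock proteins 1 was called positive at its brightest probe set, against 0.0856% of all probe sets. At any probe set 2 were, LOC_Os01g08860 being the other, and the list's median was 0.09.

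LOC_Os01g41430, a putative glucosyltransferase that attaches glucose to flavonols, read 4.40, 4.75 and 4.68 in BR-IRGA 409 control, 8.95, 9.52 and 9.11 in its excess Fe arrays, 5.02, 4.16 and 4.50 in EPAGRI 108 control and 5.11, 5.58 and 5.16 in EPAGRI 108 excess Fe. The excess Fe arrays of BR-IRGA 409 stood more than 3 log2 units above all others. It rose at least 19.7-fold there, and the gap in excess Fe was 3.91 ± 0.22 (interaction 3.86 ± 0.31, adjusted p = 0.000115). LOC_Os01g43774, a further CYP72A1-like P450, rose by 2.86 ± 0.21 in BR-IRGA 409, at least 5.67-fold, and by 0.81 ± 0.21 in EPAGRI 108 (interaction 2.06 ± 0.29).

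Other members of this class were chosen after their values were seen. LOC_Os06g48810, described as a cation transporter of the HKT family, whose members carry Na and K, read 5.89, 5.95 and 5.63 in BR-IRGA 409 control and 8.04, 8.61 and 8.50 in its excess Fe arrays, and 5.95 to 6.40 on all EPAGRI 108 arrays (interaction 2.52 ± 0.23, adjusted p = 0.000416). LOC_Os12g12590, a putative NADP-dependent oxidoreductase, rose by 3.19 in BR-IRGA 409 and 1.17 in EPAGRI 108 (interaction 2.02), a call lost in 8 of 12 fits that each left out 1 array. LOC_Os03g07226, described as a thioredoxin-like protein of the plastid, rose at least 2.82-fold in BR-IRGA 409. In EPAGRI 108 its excess Fe arrays read 3.24, 2.69 and 4.69, all under the control probe sets. Its interaction of 3.11 was lost in 10 of those fits and without the arrays numbered 1 (adjusted p = 0.106), and was 1.42, under 3-fold, with values set to the control probe sets.

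The 3 negative probe sets of this class fell in BR-IRGA 409 and stood below EPAGRI 108 in excess Fe, LOC_Os08g14080 already in control. LOC_Os12g36840, a pathogenesis-related protein of the PR10 family, read 11.17, 11.44 and 11.25 in BR-IRGA 409 control, 7.77, 6.94 and 6.90 in its excess Fe arrays, 10.18, 10.55 and 10.14 in EPAGRI 108 control and 9.98, 9.60 and 8.94 in EPAGRI 108 excess Fe. BR-IRGA 409 was the higher cultivar in control, by 0.99 ± 0.27, and the lower in excess Fe, by -2.30 ± 0.27 (interaction -3.30 ± 0.38, adjusted p = 0.00207). The order of the cultivars thus turned, although the control gap was not called. LOC_Os08g14080, chosen after its values were seen, is described as a glucanase that cuts mixed-linkage glucan of the wall. It fell by 2.36 in BR-IRGA 409 and had a gap of -1.06 in control and -2.85 in excess Fe (interaction -1.79 ± 0.30). That call was lost in 10 of 12 fits that each left out 1 array, without the arrays numbered 1 (adjusted p = 0.0909) and with either replicate block (0.0956 within each cultivar, 0.0525 over all groups).

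**Figure D4:**
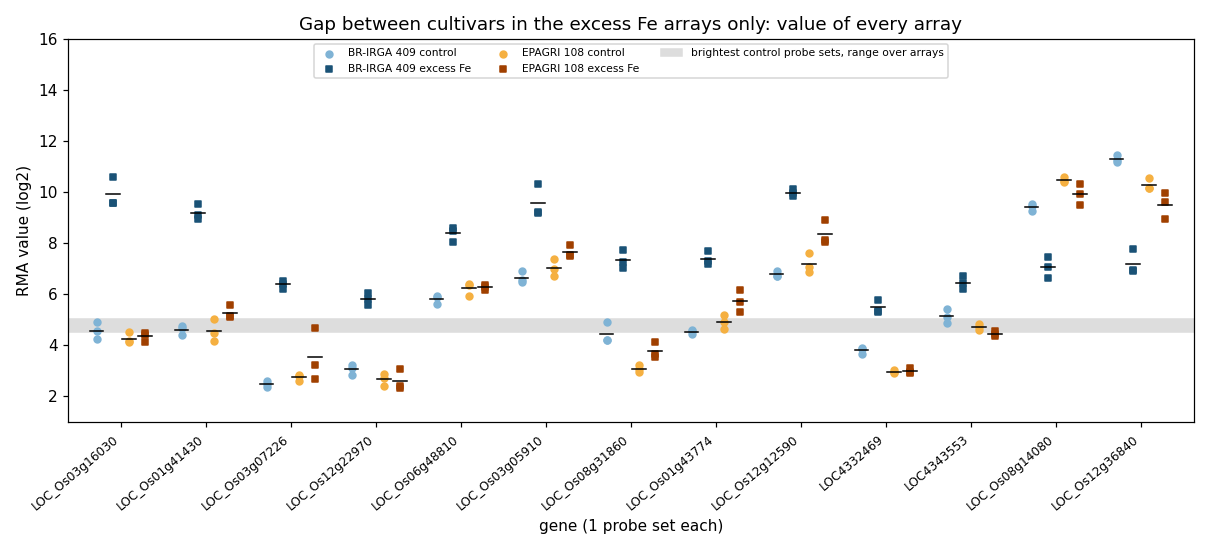
RMA value (log2, y axis) of each array for the 13 genes (x axis, 1 probe set each) whose gap between cultivars was called in the excess Fe arrays only. Short lines are group means and the grey band spans the brightest control probe sets; BR-IRGA 409 excess Fe (dark blue squares) is the highest group at the first 11 genes and the lowest at LOC_Os08g14080 and LOC_Os12g36840.

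At 8 probe sets the cultivars differed in both treatments. LOC_Os08g24200, an expressed protein of unknown function, was the one that EPAGRI 108 had higher: it read 5.38, 5.56 and 4.51, then 9.37, 10.22 and 9.19 with excess Fe in BR-IRGA 409, and 11.43, 10.94 and 10.76, then 11.82, 12.51 and 12.43 in EPAGRI 108. The gap narrowed from -5.89 ± 0.32 to -2.66 ± 0.32 (interaction 3.23 ± 0.45). At LOC4352855 all 6 EPAGRI 108 arrays lay under the control probe sets while BR-IRGA 409 went from 7.72, 7.91 and 7.73 to 10.53, 11.21 and 10.54. The cultivars differed at least 7.83-fold in control and at least 58.6-fold in excess Fe (interaction 3.20 ± 0.25). LOC_Os04g03802, a putative subtilase, a family of serine proteases, was likewise under the control probe sets on all EPAGRI 108 arrays and rose by 3.10 ± 0.36 in BR-IRGA 409 (interaction 3.56 ± 0.51, and 2.84 with values set to the control probe sets).

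LOC_Os01g03370, described as a receptor-like kinase induced in senescence, had opposite changes. It read 10.79, 10.99 and 10.82 in BR-IRGA 409 control and 9.19, 8.54 and 8.61 in its excess Fe arrays, and 4.59, 3.04 and 2.996 in EPAGRI 108 control and 5.10, 4.80 and 5.32 in EPAGRI 108 excess Fe. It fell by 2.08 ± 0.34 in BR-IRGA 409. The EPAGRI 108 change of 1.53 ± 0.34 had an adjusted p of 0.0584, between values close to the control probe sets. The gap in control was at least 66.2-fold, and the interaction was -3.62 ± 0.49 as measured (adjusted p = 0.00829) and -2.41 with values set to the control probe sets.

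In the last 8 probe sets neither gap was called. LOC_Os11g44340, of unknown function, rose by 3.17 ± 0.19 in BR-IRGA 409 and 0.79 ± 0.19 in EPAGRI 108 (interaction 2.38 ± 0.26), passing from below EPAGRI 108 in control (gap -1.03) to above it in excess Fe (1.35). LOC9268400 rose by 1.34 in BR-IRGA 409 and had a change of -1.15 in EPAGRI 108 (interaction 2.48 ± 0.43), and was lost in 9 of 12 fits that left out 1 array. LOC_Os04g24140, a putative ribose-5-phosphate isomerase of the pentose phosphate pathway, had an interaction of -2.00 ± 0.27. The cysteine proteases LOC_Os09g39120 (-2.13) and LOC_Os09g21370 (-2.02) were lost in 10 and 9 of those fits, and both without the arrays numbered 1.

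Other gene groups gave no or few calls in the interaction. Of 8 large heat shock proteins 0 were called by limma, 1 had an unadjusted p under 0.05 (4.71% of all probe sets did), and their median was -0.03; LOC4345951, LOC4347402 and LOC4347405, the brightest, had interactions of -0.05, 0.03 and -0.02. Of 6 hemoglobin and fermentation genes 0 were called either, and 2 had an unadjusted p under 0.05. OsHb2, a non-symbiotic hemoglobin, read 10.72, 11.74 and 12.53 in BR-IRGA 409 control and 9.47, 9.49 and 8.95 in EPAGRI 108 control, and its interaction of -2.52 had an adjusted p of 0.127. With the replicate number of each cultivar as a block it was called (adjusted p = 0.00348), and with a block over all groups it was not (0.105). OsHb1 (-1.07) and the pyruvate decarboxylase PDC2 (-0.08) did not pass. Of 5 genes of phosphate starvation 0 were called, and 0 had an unadjusted p under 0.05. Of 5 genes of the methionine cycle, which supplies the substrate of nicotianamine, 3 had an unadjusted p under 0.05 and 1 was called, the isomerase LOC_Os04g24140, by its description an enzyme of the pentose phosphate pathway and not of that cycle. SAM1, an S-adenosylmethionine synthetase, read 13.57 to 13.79 on all arrays and had an interaction of 0.06. IDI2 had an interaction of -0.77 and LOC_Os04g27830, a dioxygenase of methionine recycling, one of 0.95 (adjusted p = 1 for both).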

How the data were processed

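Root RNA was hybridised to GeneChip Rice Genome Arrays, 12 in all. The values are the RMA values on a log2 scale that the authors deposited, with 1 value for each probe set on each array; scans were read by GCOS 1.2.1 and RMA was run in ArrayAssist, and a later variance stabilization by a fixed quantity of unstated size is described in the methods. Of 57381 probe sets, 123 controls were left out. The array annotation gave 1 gene for 22436, several for 95 and none for 34727, and locus names and descriptions came from the study's tables where these hold it; coordinates were not used. limma 3.58.1 (R 4.3.3) fitted the means of the 4 groups over all 12 arrays (8 residual degrees of freedom), p-values were adjusted by Benjamini-Hochberg over all 57258 probe sets, and a call needed an adjusted p under 0.05 and 3-fold, as did the calls of gaps and of changes. Each change is excess Fe minus control, each ± is the fit's SE, and "at least" folds set arrays under the brightest of 23 control probe sets without a rice target to that level. The number of arrays limits the precision. The fit was tested on simulated data. Figures were drawn with matplotlib 3.10.9 in Python 3.11.15.

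Members and the 10 gene lists were chosen with earlier results of these data known. Genes are named by a rule: the 10 largest in each direction, the 4 largest of each class, every called list member and up to 3 of the brightest other members of a list, which gave 66 genes; the text says where another was chosen after its values were seen. Each gene of a list has 1 probe set, that with the highest mean. Same-numbered arrays were checked for pairing by correlating their deviations from the group means: 15 of 18 pairs lay over 0.1 and the lowest was 0.0104, and within a cultivar all lay over 0.1. The labels state no pairing, and fits with the number as a block were alternatives. Further alternatives were 16 added to the linear values, a mean-variance trend, array weights, centring, quantile normalization and a filter on dim probe sets. Others were 2-fold, an ordinary test of the interaction with the spread of each probe set alone, and leaving out each array. After the data were seen 2 were added, namely leaving out both EPAGRI 108 arrays numbered 1 and setting values to the control probe sets. The deposited table of log2 values was the only one used, with no column of other series.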

Additional observations from a re-analysis of the deposited data

Results flagged for a closer look

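Each result here was singled out because the effect of excess Fe differed between the cultivars by limma's test of the interaction: 49 probe sets with a positive and 31 with a negative one. Among named genes the positive interactions (log2) with the gap in control were LOC_Os04g45510 (5.39), LOC_Os04g45520 (4.42), OsVIT2 (4.25 and 3.72), LOC9267937 (3.60), LOC_Os12g29400 (3.34), LOC_Os01g08860 (3.11), LOC_Os01g43720 (2.97), LOC_Os07g34710 (2.81), LOC_Os01g58960 (2.73), LOC_Os02g33820 (1.77) and LOC_Os06g48000 (1.76). With the gap in excess Fe they were LOC_Os03g16030 (5.25 and 4.36), LOC_Os01g41430 (3.86) and LOC_Os01g43774 (2.06). LOC_Os04g03802 (3.56), LOC_Os08g24200 (3.23) and LOC4352855 (3.20) had a called gap in both, and LOC9268400 (2.48) and LOC_Os11g44340 (2.38) had a called gap in neither.

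The negative ones with the gap in control were OsYSL15 (-6.39), OsNAS1 (-6.16), OsIMA1 (-6.01), OsNAS2 (-5.95), OsNAAT1 (-5.38), LOC_Os11g15624 (-4.72), OsTOM1 (-4.21), OsYSL2 (-3.90), OsNRAMP1 (-3.88), LOC_Os01g65110 (-3.72), OsMIR (-2.93), LOC_Os01g22230 (-2.42) and OsIRO3 (-1.85). LOC_Os12g36840 (-3.30) had its gap in excess Fe and LOC_Os01g03370 (-3.62) in both, and LOC_Os09g39120 (-2.13), LOC_Os09g21370 (-2.02) and LOC_Os04g24140 (-2.00) had none called.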

How the results depend on the processing

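The table's 49 positive and 31 negative calls, sorted as 43 in control only, 21 in excess Fe only and 16 in both or neither, kept within 1.5 times under centring, quantile normalization, a mean-variance trend and the filter on dim probe sets. With 16 added to the linear values there were 23 positive calls, 11 in excess Fe only and 8 in both or neither. Array weights gave 56 negative, 36 in excess Fe only and 31 in both or neither, and at 2-fold 34 lay in excess Fe only. An ordinary test of the interaction, with the spread of each probe set alone, gave 112 positive and 63 negative at an unadjusted p (53 in excess Fe only, 60 in both or neither). After adjustment it gave 16 and 16 (19, 9 and 4 in the classes). The methods describe a t-test and no test of an interaction. With the EPAGRI 108 labels exchanged limma called 1299 and 539 (324, 264 and 1250). Without both EPAGRI 108 arrays numbered 1 there were 64 negative, 34 in excess Fe only and 36 in both or neither, and values set to the control probe sets left 10 in both or neither. The cause was not tested.

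Leaving out 1 array at a time gave 32 to 64 positive and 25 to 61 negative calls, with 33 to 49 in control only, 13 to 32 in excess Fe only and 9 to 31 in both or neither; the 61, 32 in excess Fe only and 31 came without EPAGRI 108 control 1, 32 positive without BR-IRGA 409 excess Fe 2 or 3, 13 without excess Fe 2, and 9 or 10 without BR-IRGA 409 excess Fe 3, control 2 or control 3. Of the 80 probe sets, 52 stayed called in all 12 fits. With the replicate number as a block, shared by all groups, limma gave 52 and 32 calls, and as a block within each cultivar 55 and 33; either block ended the calls of LOC_Os09g21370, LOC_Os08g14080 and LOC_Os07g34690, and that within each cultivar also those of LOC_Os01g58960 (adjusted p = 0.0923), LOC_Os06g36850 (0.0715) and LOC_Os12g04980 (0.0582), while OsHb2 gained one (0.00348). Of the 68 probe sets named by the rule, 9 changed sign in some setting, 0 of them called and each at most 0.17 in size.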

Other observations

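Among the 80 probe sets, 13 had no gene or locus in the tables used. Pairs of loci with successive numbers were not always in the same class: LOC_Os08g31860 was called with its gap in excess Fe only (interaction 2.19) and LOC_Os08g31850 with a gap in both treatments (2.17), with all 6 EPAGRI 108 arrays under the control probe sets at each. LOC_Os08g31850 read 6.82, 6.81 and 6.77 in BR-IRGA 409 control and 9.27, 9.40 and 9.09 in its excess Fe arrays. Its gap was at least 3.95-fold in control and at least 20.6-fold in excess Fe. LOC_Os12g04980, described as the meiotic recombination protein DMC1, read 5.01, 4.82 and 4.97 in BR-IRGA 409 control and 7.79, 7.38 and 7.52 in its excess Fe arrays, against 6.83, 6.02 and 6.03 and then 6.93, 6.82 and 7.43 in EPAGRI 108 (interaction 1.86, adjusted p = 0.0346, lost in 8 of 12 fits that each left out 1 array). Without the EPAGRI 108 arrays numbered 1, LOC_Os08g31860 was not called (adjusted p = 0.0531), nor was LOC_Os12g04980, then under 3-fold. These genes were chosen after their values were seen.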
